A study of Mus musculus with 16 samples.

Results

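Non-muscle myosin II is the motor that pulls on actin filaments in cells outside striated and smooth muscle. Each motor holds a pair of heavy chains, which carry the ATPase head and the coiled-coil tail that assembles into bipolar filaments, with an essential and a regulatory light chain bound to each neck. Phosphorylation of the regulatory light chain by several kinases switches the motor on, and myosin phosphatase switches it off. The motors work on filaments of β- and γ-actin, many of them coated with tropomyosin, and in epithelial tumour cells they drive junctional tension, cell division and migration. The genes described here are Myh9, Myh10 and Myh14, which encode the heavy chains of non-muscle myosin IIA, IIB and IIC; Myl6, the essential light chain; Myl9, Myl12a and Myl12b, the regulatory light chains; Actb and Actg1, the cytoplasmic actins; and Tpm1, a tropomyosin. They are 10 genes of the 20622 in the series and were chosen by symbol, with Myh10 in view because its ribosome footprints per mRNA differed between the lines by one of the largest amounts of all genes, downwards in the line without eIF4A2. The change in Myh10 between the cell lines is therefore given as a description, without a test.

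The cells were KM lines, cultured from lung tumours of 1 male mouse that carried, among other alleles, Rosa26 LSL-MYC/LSL-MYC, so that both groups share that MYC transgene and the rest of the tumour genotype. KM_NTC cells had received a non-targeting CRISPR guide, whereas KM_4A2cr cells were a pool of 4 clones that had received a guide against Eif4a2, the gene for the RNA helicase eIF4A2, and lacked the protein. All cells were untreated. Each line was plated and harvested on different days as 4 replicates, and each lysate gave a ribosome-protected fragment (RPF) library and a cytoplasmic RNA library, named total RNA here, which makes 16 libraries. Differences between the lines therefore come from 1 tumour background and 1 pool of clones, and each p-value measures the spread between harvests of the same lines.

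RPF libraries held 4512403 to 9621848 reads in coding sequences, and total RNA libraries 5350920 to 9312624 estimated reads. Eif4a2 was lower in KM_4A2cr in every pair, at 0.522 to 0.889 of its KM_NTC level in RPFs and 0.830 to 0.952 in total RNA, with fitted log2 changes of -0.49 (edgeR adjusted p = 0.0941) and -0.18 (edgeR adjusted p = 0.504), or -0.60 (0.00304) and -0.19 (0.147) without replicate 4. Replicate 4 stood apart: with all 4 pairs 10.3% of genes were called in RPFs, and leaving out pair 4 raised the count of called genes from 1062 to 3469. Counts of calls are therefore given with and without that pair. Epithelial markers were high in both lines, with summed total RNA levels of 4473 to 5819.8 CPM (counts scaled to library depth with TMM factors) in KM_NTC and 5533 to 7638 CPM in KM_4A2cr. The 7 alveolar type II markers summed to 77.9 to 140.1 CPM in KM_NTC and 121 to 196 CPM in KM_4A2cr, nearly all of it Abca3 (104 and 159 CPM on average). Among these markers, the surfactant genes Sftpc and Sftpb had 0 counts in all total RNA libraries. The paper states that the identity of its cell lines was checked by, among others, expression of surfactant protein C, the product of Sftpc.

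The members spanned a wide range of RNA levels. On the TPM scale, which corrects for depth and transcript length, Actb led in KM_NTC at 5385 ± 1550 TPM (SD, n = 4), followed by Tpm1 at 1001 ± 192 TPM, Actg1 at 861 ± 181 TPM, Myl6 at 507 ± 64.5 TPM and Myl12a at 428 ± 84.0 TPM. Among these, the ranges of Tpm1 and Actg1 overlapped, as did those of Myl6 and Myl12a. Myh9 had 61.5 ± 16.2 TPM, Myh14 had 5.70 ± 2.03 TPM and Myh10 only 0.405 ± 0.0995 TPM, and no library of one of these 3 heavy chains reached into the range of another. The order was the same in KM_4A2cr, where Actb had 4741 ± 885 TPM, Myh9 52.6 ± 9.42 TPM, Myh14 4.96 ± 1.61 TPM and Myh10 1.58 ± 0.251 TPM. IIA was thus the heavy chain with by far the most RNA in both lines. Myl9, the regulatory light chain best known from smooth muscle, had 0 counts in all 8 total RNA libraries, which allows up to 3 counts, or 0.322 to 0.561 CPM, per library by counting error alone. It was not listed in the RPF files. The other 9 symbols, which map to 10 gene IDs because Myl12b is paired with 2, all passed the filter on low counts in RPFs and in total RNA.

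Myh10, the IIB heavy chain, had far more RNA in KM_4A2cr, while its footprints overlapped between the lines. In total RNA it stood at 2.24, 1.44, 1.22 and 2.3 CPM in KM_NTC replicates 1 to 4, and at 5.56, 7.38, 5.11 and 9.22 CPM in KM_4A2cr replicates 1 to 4. Every KM_4A2cr library lay above every KM_NTC library, and the fitted log2 change was 1.93 (SE 0.25, 95% interval 1.38 to 2.48), a 3.82-fold difference and the 20th largest rise of 10880 genes. These levels rest on few reads, since the KM_NTC libraries held 16, 16, 9 and 12 Myh10 reads and the KM_4A2cr libraries 34, 58, 27 and 40. The summed 53 and 159 reads have exact Poisson 95% intervals of 39.7 to 69.3 and 135 to 186, which cover counting error only.

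In RPFs, Myh10 stood at 10.0, 9.83, 7.40 and 7.76 CPM in KM_NTC and at 8.33, 12.7, 11.6 and 13.2 CPM in KM_4A2cr. The groups overlapped, because pair 1 was lower in KM_4A2cr while pairs 2 to 4 were higher. The means were 8.76 ± 1.37 and 11.5 ± 2.18 CPM (SD, n = 4), and the fitted log2 change was 0.35 (SE 0.20, 95% interval -0.10 to 0.79), a 1.27-fold difference, which was 0.57 without pair 1 and 0.24 without pair 4. Before scaling, 301 Myh10 footprints were counted in KM_NTC, whose RPF libraries were deeper in 3 of 4 pairs, and 304 in KM_4A2cr.

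**Figure D1:**
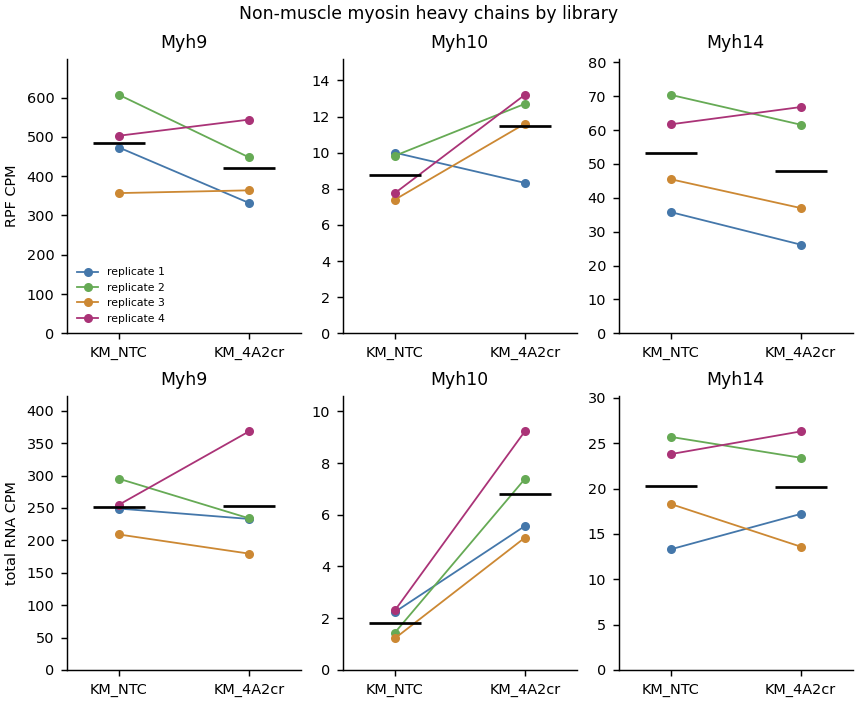
Levels of the non-muscle myosin heavy chains Myh9, Myh10 and Myh14 in each library, in RPF CPM (top) and total RNA CPM (bottom); lines join the libraries of one replicate number, coloured by replicate, and black bars are the means of 4. Myh10 total RNA lies at 5.11 to 9.22 CPM in KM_4A2cr, above all KM_NTC libraries, while the other panels overlap between lines.

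Footprints per mRNA, the ratio of RPF CPM to total RNA CPM in one lysate, put these together. The ratio also depends on how much of a transcript is coding, so it is compared here within a gene and not between genes. For Myh10 it was 4.48, 6.83, 6.08 and 3.38 in KM_NTC and 1.50, 1.72, 2.28 and 1.43 in KM_4A2cr, with no overlap. The fitted change in translational efficiency, the interaction of cell line and library kind over all 16 libraries, was -1.60 on the log2 scale (SE 0.26, 95% interval -2.14 to -1.07), or 0.33-fold. This was the third lowest value of 9989 genes. It followed Hcn4, a pacemaker channel (-1.90, SE 0.75), and Rusc1 (-1.67, SE 0.46), and preceded Nlrc3 (-1.59, SE 0.35) and Ucp2, a mitochondrial carrier (-1.46, SE 0.37). Of these 5 genes, Myh10 was alone with Rusc1 in having more total RNA reads in KM_4A2cr than in KM_NTC, and it had the smallest SE. Leaving out pair 4 gave -1.69 (SE 0.29).

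The other heavy chains did not share this pattern. Myh9 had 1.90, 2.06, 1.71 and 1.97 RPF CPM per total RNA CPM in KM_NTC and 1.43, 1.92, 2.03 and 1.48 in KM_4A2cr, and the lines overlapped. Its translational efficiency change was -0.17 (SE 0.11, adjusted p = 0.492, quasi-likelihood test of edgeR, adjusted after Benjamini and Hochberg), with an interval of -0.39 to 0.05. Myh14 had 2.68, 2.74, 2.49 and 2.60 in KM_NTC and 1.53, 2.63, 2.72 and 2.54 in KM_4A2cr, where replicate 1 alone fell well below the rest. The change was -0.18 (SE 0.15, edgeR adjusted p = 0.632), with an interval of -0.48 to 0.12.

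**Figure D2:**
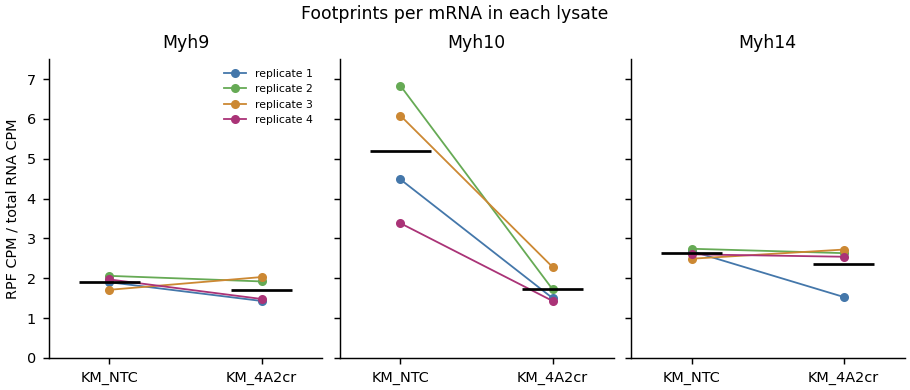
Footprints per mRNA (RPF CPM divided by total RNA CPM) for the 3 heavy chains in each of 8 lysates; lines join replicate numbers and black bars are the means of 4. Myh10 lies at 3.38 to 6.83 in KM_NTC and at 1.43 to 2.28 in KM_4A2cr, whereas Myh9 and Myh14 overlap between lines.

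Because heavy chains are paralogues, reads of the abundant Myh9 could in principle be counted at Myh10. Myh10 counts came to 0.488 to 0.901% of Myh9 counts in KM_NTC total RNA and 2.39 to 3.16% in KM_4A2cr total RNA. In RPFs they were 1.54 to 2.12% and 2.43 to 3.2%. The Myh10 counts did not keep a fixed proportion to Myh9. Such proportions cannot apportion reads between the genes, and the part that shared reads have in the footprint values was not tested. Among the 4 Myh10 transcripts, the 3 long ones (ENSMUST00000018887.15, ENSMUST00000092984.6 and ENSMUST00000102611.10, the last being the one to which footprints were mapped) took 33, 31.1 and 34.0% of its reads. All 3 had more reads in KM_4A2cr, with summed counts of 18 and 52, 18 and 48, and 17 and 55 in KM_NTC and KM_4A2cr. These are estimated divisions of the few reads of a single gene, so the 3 rises are not independent. The share of ENSMUST00000092984.6 ran from 11.1 to 58.3% over libraries, and how well these transcripts could be told apart was not tested. The short transcript had 0 and 4 reads.

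Myh10 is also a gene of mesenchymal cells, so markers of such cells were read beside it. The summed total RNA level of 8 fibroblast markers was 3.09 to 9.96 CPM in KM_NTC and 3.60 to 8.53 CPM in KM_4A2cr, and the ranges overlapped. Col3a1, Dcn and Lum had 0 counts in both lines, and Col1a1 and Col1a2 had 1 count each in all. Pdgfra made up most of the fibroblast sum, at 5.46 CPM in KM_NTC and 6.41 CPM in KM_4A2cr on average. The 6 smooth muscle markers summed to 1.44 to 4.79 and 1.33 to 6.22 CPM, and the 5 endothelial markers to 1.53 to 7.28 and 0.947 to 5.53 CPM. The part of such cells in the Myh10 difference was not tested.

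The genes whose footprints per mRNA tracked Myh10 most closely over the 8 lysates, on the log2 scale, were Zfp410 (Pearson r = 0.98), Triap1 (0.96), Sf3b4 (0.94), Mrpl42 (0.93) and Brca1 (0.92). The 8 points share 2 cell lines and the normalisation of their libraries, and the gene was picked for its difference between those lines, so the values describe likeness only. All 5 had lower ratios in KM_4A2cr, with fitted translational efficiency changes of -0.49, -0.82, -0.57, -0.29 and -0.67, each smaller than that of Myh10.

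For the heavy chains with more RNA, the lines overlapped in footprints and in total RNA. Myh9 RPFs were 473, 607, 357 and 503 CPM in KM_NTC and 332, 448, 364 and 544 CPM in KM_4A2cr. Its total RNA was 249, 295, 209 and 255 CPM in KM_NTC and 233, 234, 179.5 and 368 CPM in KM_4A2cr. KM_4A2cr replicate 4 held the highest total RNA level in CPM, while in TPM KM_NTC replicate 2 did. The log2 changes were -0.20 (SE 0.15, edgeR adjusted p = 0.444) in RPFs and -0.03 (SE 0.16, edgeR adjusted p = 0.945) in total RNA. Myh14 RPFs were 35.8, 70.4, 45.5 and 61.7 CPM in KM_NTC and 26.2, 61.6, 37.0 and 66.8 CPM in KM_4A2cr, so that the replicates differed more than the lines. In total RNA it had 13.3, 25.7, 18.3 and 23.8 CPM in KM_NTC and 17.2, 23.4, 13.6 and 26.3 CPM in KM_4A2cr. Its log2 changes were -0.21 (SE 0.14, edgeR adjusted p = 0.399) in RPFs and -0.01 (SE 0.16, edgeR adjusted p = 0.977) in total RNA.

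In CPM, the light chains stood lower in KM_4A2cr in the first 3 pairs but not in the last. The footprints of a second Myl12b gene ID were the exception. In total RNA the direction of pair 4 depended on the scaling. In TPM it was lower in KM_4A2cr for Myl12a (308 to 245), Myl12b (129.5 to 111) and the second Myl12b ID (200.1 to 148). Myl6 rose in pair 4 in TPM too, from 443 to 525. Myl6 RPFs were 399, 419, 399 and 417 CPM in KM_NTC and 328, 329.7, 307 and 474 CPM in KM_4A2cr. Total RNA levels were 167, 146, 142 and 164 CPM in KM_NTC and 134, 118, 110.4 and 262 CPM in KM_4A2cr. In both, 3 KM_4A2cr libraries lay below every KM_NTC library and replicate 4 lay above every one. With 4 pairs the log2 changes were -0.21 (SE 0.14, edgeR adjusted p = 0.403) in RPFs and -0.08 (SE 0.18, edgeR adjusted p = 0.861) in total RNA. Without pair 4 both were -0.34, with edgeR adjusted p of 0.0223 and 0.0107.

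Myl12a, a regulatory light chain, had RPFs of 507, 596, 578 and 532 CPM in KM_NTC and 455, 500, 487 and 539.9 CPM in KM_4A2cr. Its total RNA was 219, 206, 229 and 188 CPM in KM_NTC and 183, 167, 169 and 196 CPM in KM_4A2cr. The same 3 pairs were lower and pair 4 was slightly higher, with log2 changes of -0.16 (SE 0.12, edgeR adjusted p = 0.467) in RPFs and -0.23 (SE 0.13, edgeR adjusted p = 0.395) in total RNA. Without pair 4 the total RNA change was called, at -0.34 (edgeR adjusted p = 0.0103), and the RPF change was -0.22 (edgeR adjusted p = 0.121).

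Myl12b, a regulatory light chain also encoded on chromosome 17, appears under 2 gene IDs. Under ENSMUSG00000034868.10, RPFs were 74.5, 75.5, 66.4 and 77.4 CPM in KM_NTC and 53.7, 60.0, 51.8 and 80.2 CPM in KM_4A2cr, and total RNA was 126, 111, 109 and 124 CPM and 105, 103, 83.7 and 142 CPM. Once more pairs 1 to 3 were lower and pair 4 higher. The log2 changes were -0.28 (SE 0.13, edgeR adjusted p = 0.239) in RPFs and -0.13 (SE 0.13, edgeR adjusted p = 0.64) in total RNA. Under the second ID, ENSMUSG00000117098.2, RPFs were 9.14, 14.8, 9.04 and 23.5 CPM in KM_NTC and 14.1, 12.9, 11.1 and 18.3 CPM in KM_4A2cr. Its translational efficiency change was 0.35 (SE 0.17, edgeR adjusted p = 0.35), and 0.57 without pair 4 (edgeR adjusted p = 0.0373). Footprints at the second ID amounted to 12.3 to 30.4% of those at the first, against 52.9 to 67.2% in total RNA, and since the files pair both with one symbol, how reads divide between them is uncertain.

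Actb and Actg1, which encode β- and γ-actin, supplied the most footprints of the family. Actb RPFs were 2724, 3189, 3587 and 2704 CPM in KM_NTC and 2151, 2883, 2476 and 3701 CPM in KM_4A2cr. In total RNA Actb stood at 4443, 5236, 4183 and 3823 CPM in KM_NTC and 3582, 4505, 3747 and 6407 CPM in KM_4A2cr. In CPM, replicate 4 had the highest Actb of KM_4A2cr and the lowest of KM_NTC in both kinds of library, and the other pairs went the opposite way. In TPM, KM_4A2cr replicate 2 had more Actb RNA (5994) than replicate 4 (4735). The log2 changes were -0.14 (SE 0.17, edgeR adjusted p = 0.655) in RPFs and 0.01 (SE 0.24, edgeR adjusted p = 0.988) in total RNA. Without pair 4 they were -0.34 (edgeR adjusted p = 0.0522) and -0.24 (edgeR adjusted p = 0.0759), so the direction in total RNA turned with that pair.

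Actg1 RPFs were 1735, 1787, 1821 and 1771 CPM in KM_NTC and 1518, 1757, 1616 and 2139 CPM in KM_4A2cr. Its total RNA was 739, 680.3, 631 and 599.7 CPM in KM_NTC and 657, 706, 606 and 951 CPM in KM_4A2cr. KM_NTC replicates were nearly level in RPFs, whereas KM_4A2cr replicate 4 stood above all others. The log2 changes were -0.03 (SE 0.13, edgeR adjusted p = 0.916) in RPFs and 0.12 (SE 0.18, edgeR adjusted p = 0.77) in total RNA, the latter turning to -0.07 (edgeR adjusted p = 0.659) without pair 4 and to -0.04 when scaled by library size only.

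The balance of the actins was compared between lines and between kinds of library. Actb made up 63.0% ± 2.74 (SD, n = 4) of the summed Actb and Actg1 footprints in KM_NTC and 61.2% ± 2.06 in KM_4A2cr. In total RNA it made up 86.9% ± 1.17 and 86.0% ± 1.10. The difference between lines was -1.82 percentage points in RPFs (-5.82 to 2.95 over pairs; exact sign-flip test over 4 pairs, two-sided p = 0.5) and -0.864 points in total RNA (-2.05 to 0.632; exact sign-flip p = 0.25), where 4 pairs cannot give a p below 0.125. Without pair 4 the differences were -3.41 and -1.36 points. Footprint shares of 58.6 to 66.3% lay below all total RNA shares, 84.5 to 88.5%. The actin proteins are close to identical, while the likeness of their coding sequences was not measured here. Acta1 and Actc1, muscle actins named here after their values were seen, had 15390 and 905 footprints over all 8 RPF libraries. Over all 8 total RNA libraries they had 1806 and 10 reads. The part of shared reads in these shares was not tested.

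Tpm1 RPFs were 733, 747, 568 and 739 CPM in KM_NTC and 724, 797, 679.7 and 728 CPM in KM_4A2cr. Total RNA values were 791, 815, 759.8 and 727 CPM in KM_NTC and 663, 824, 719 and 1019 CPM in KM_4A2cr. The lines overlapped in both, and 2 of 4 pairs were higher in KM_4A2cr in each. The log2 changes were 0.08 (SE 0.12, edgeR adjusted p = 0.737) in RPFs and 0.04 (SE 0.17, edgeR adjusted p = 0.932) in total RNA, both turning negative (-0.05 and -0.12) when scaled by library size only.

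**Figure D3:**
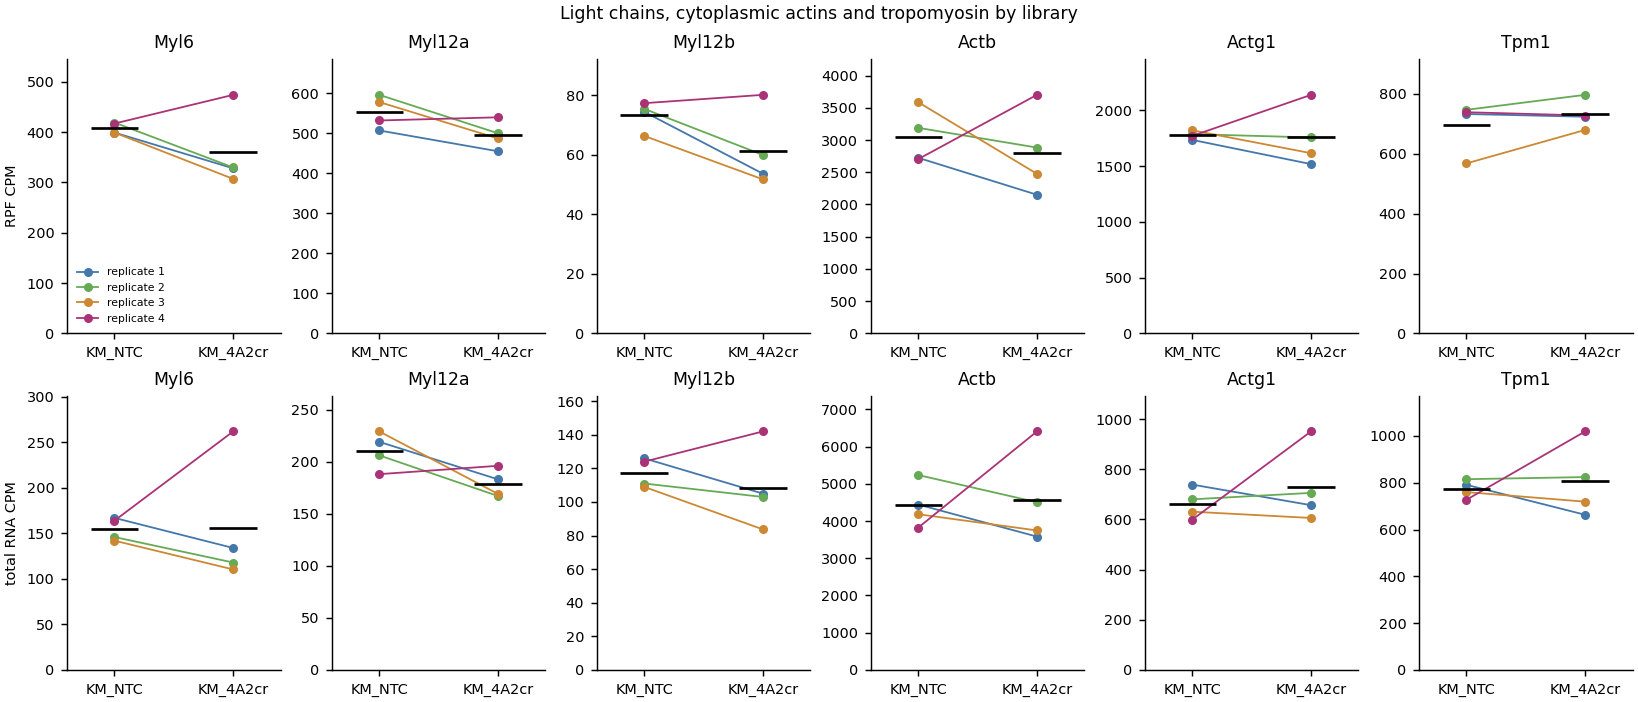
Levels of Myl6, Myl12a, Myl12b (first gene ID), Actb, Actg1 and Tpm1 in each library, in RPF CPM (top) and total RNA CPM (bottom); lines join replicate numbers and black bars are the means of 4. In total RNA the replicate 4 line rises in all 6 genes, steeply for Myl6 from 164 to 262 CPM and for Actb from 3823 to 6407 CPM, while most other lines fall. In TPM, which is not drawn, Myl12a and Myl12b fall in replicate 4.

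The 10 symbols were also read for a shared promoter feature, because serum response factor (SRF) and its actin-sensing coactivators are known to drive many actin and myosin genes through the CArG box, CC followed by 6 bases that are A or T and then GG. The motif reads alike on both strands. RefSeq promoter windows, 250 bases before to 50 after the transcript start (GRCm38.p6), were held for 9 of the 10 symbols, Actb being the missing one. A CArG box lay in 3 of the 10 windows, against 535 of 32851 windows (1.63%) of all genes. The windows of Myh9, Myh10, Myh14, Myl12a, Myl12b and Tpm1 held none, which says only that these letters are not in these windows. The 3 boxes are printed as the matches found among the members. They fall in Myl9, which had no reads, and in Myl6 and Actg1, whose total RNA CPM was highest in KM_4A2cr replicate 4. Of the members whose windows held none, Myh9, Myh10, Myh14, Myl12b (first gene ID) and Tpm1 were also highest there. Myl12a was instead highest in KM_NTC replicate 3, at 229 CPM against 196 CPM in KM_4A2cr replicate 4. The second Myl12b ID was highest in KM_NTC replicate 1, at 77.8 CPM against 76.3 CPM. These orders hold for CPM with TMM factors. In TPM no member with reads was highest in KM_4A2cr replicate 4. Myl6 and Actg1 had 525 and 745 TPM there, against 569.6 and 1042 TPM in KM_NTC replicate 2. The part of the box in these levels was not tested. The 3 boxes begin 161 bases (Myl9, chr2:156775293-156775322, plus strand), 50 bases (a second start of Myl6, chr10:128493040-128493069, minus strand) and 90 bases (Actg1, chr11:120348566-120348595, minus strand) before the start. In the lines that follow, read 5′ to 3′ on the gene's strand, capitals mark the box.
Myl9: caagcagaggCCTAATAAGGccgggctggc
Myl6: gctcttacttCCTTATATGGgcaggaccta
Actg1: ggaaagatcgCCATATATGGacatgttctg

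Read together, the members other than Myh10 gave no call with all 4 pairs. In RPFs, 0 of 9 gene IDs were called (edgeR, 0 at an unadjusted p under 0.05, 0 with DESeq2), against 10.3% of 10291 genes, and 7 of 9 fitted changes were below 0, with a median of -0.16 beside -0.01 for all genes. In total RNA, 0 of 9 were called (edgeR, 0 unadjusted, 0 with DESeq2), against 6.13% of 10880 genes, with a median of -0.03 beside 0.01. In translational efficiency, 0 of 9 were called (edgeR, 1 unadjusted, 0 with DESeq2 and 0 with limma), against 2.91% of 9989 genes, with a median of -0.15 beside -0.02. Adjusted p-values from edgeR ran from 0.239 to 0.916 in RPFs, from 0.335 to 0.988 in total RNA and from 0.35 to 0.921 in translational efficiency.

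The pairs show where the spread lay. In total RNA, 8, 7 and 9 of the 9 gene IDs were lower in KM_4A2cr in pairs 1, 2 and 3, with medians of -0.25, -0.22 and -0.36 on the log2 scale. In pair 4 all 9 were higher, with a median of 0.49, while the median over all genes was between -0.03 and 0.02 in every pair. In RPFs, 8, 8 and 6 of 9 were lower in pairs 1 to 3, and in pair 4 7 of 9 were higher, with a median of 0.11. Scaled by library size only, pair 4 had 5 of 9 higher in total RNA, with a median of 0.28 against -0.18 for all genes. In footprints per mRNA, all 9 were lower in pair 4, with a median of -0.37, against 5, 5 and 3 of 9 in the other pairs; by library size only, 6 of 9 were lower in pair 4, with a median of -0.17 against 0.17 for all genes. Myh10 total RNA was higher in all 4 pairs and its footprints per mRNA lower in all 4.

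**Figure D4:**
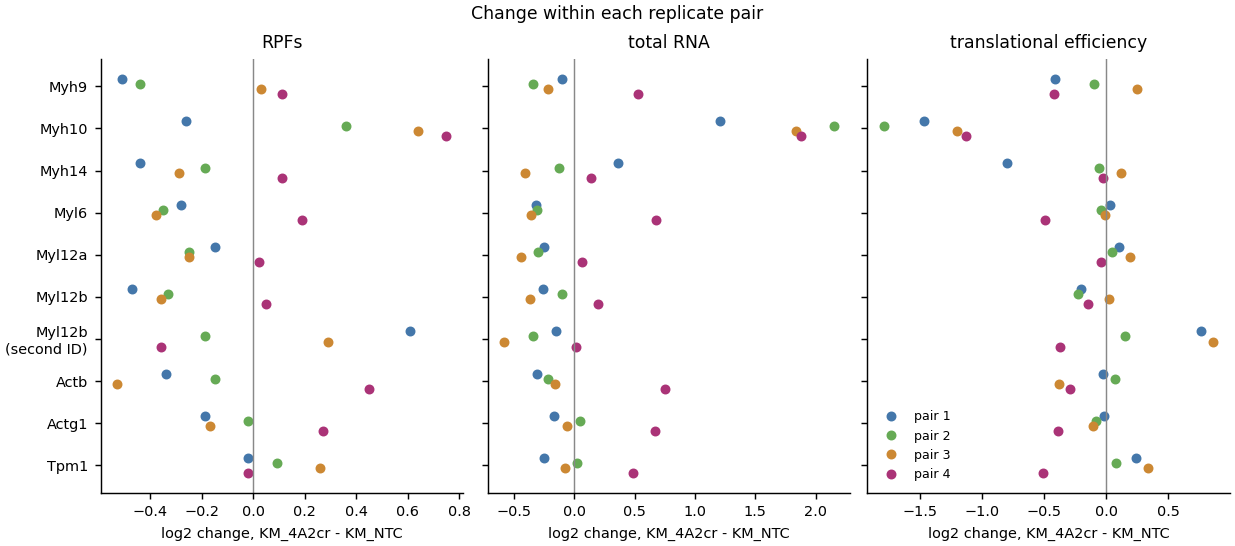
Log2 difference KM_4A2cr minus KM_NTC within each replicate pair for the 10 gene IDs with reads, in RPFs, total RNA and translational efficiency; points are pairs, coloured by replicate number, and the grey line is no change. In total RNA every pair 4 point lies above 0, with a median of 0.49 for the members other than Myh10, and Myh10 stands apart in total RNA and translational efficiency in all pairs.

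Leaving out pair 4 gave calls. In RPFs, 5 of 9 gene IDs were called lower in KM_4A2cr, against 14.3% of 10376 genes called lower. They were Myh9 (-0.31, edgeR adjusted p = 0.0742), Myh14 (-0.31, edgeR adjusted p = 0.0696), Myl6, Myl12b (-0.39, edgeR adjusted p = 0.0164) and Actb. In total RNA, 6 of 9 were called lower, against 12.0% of 10941 genes. They were Myh9 (-0.23, edgeR adjusted p = 0.0853), Myl6, Myl12a, both IDs of Myl12b (-0.25 and -0.36, edgeR adjusted p = 0.0698 and 0.0191) and Actb. In translational efficiency, 1 of 9 was called, the second Myl12b ID, which was higher, against 6.69% of 10072 genes. Pair 4 is singled out because it was seen to stand apart, and these counts hold for the first 3 pairs only.

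**Figure D5:**
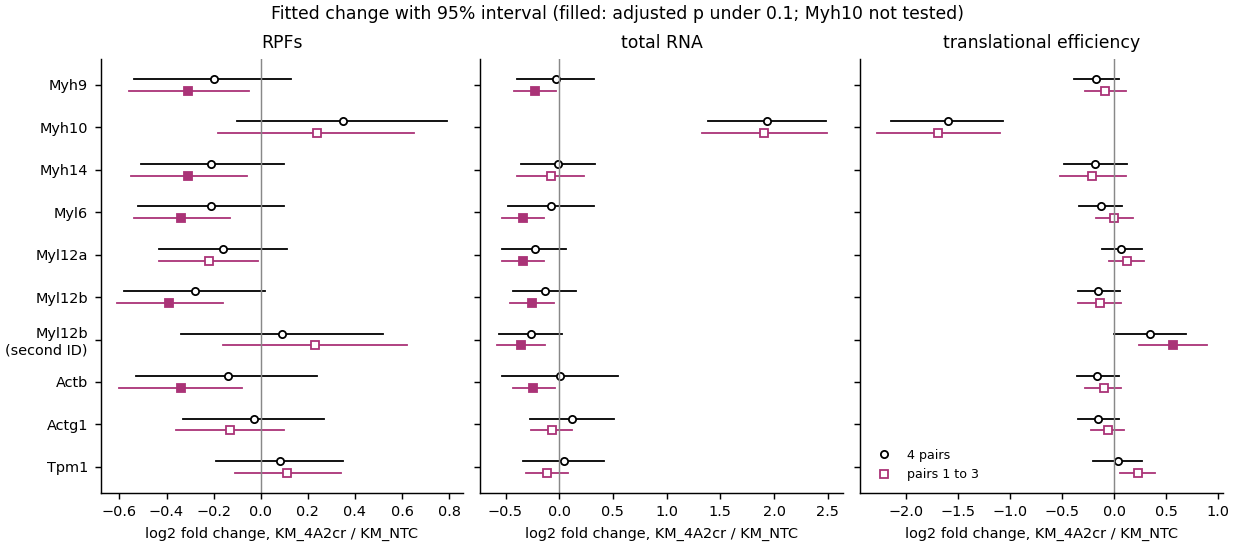
Fitted log2 fold change KM_4A2cr over KM_NTC with its 95% interval for each gene ID, from 4 pairs (circles) and from pairs 1 to 3 (squares); filled symbols have an edgeR adjusted p under 0.1, and Myh10 was not tested. The horizontal scale differs between panels. With 4 pairs no symbol is filled, and with 3 pairs 5 are filled in RPFs and 6 in total RNA, all below 0.

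By transcript, 0 of 39 isoforms of the members other than Myh10 were called with 4 pairs (edgeR, 1 at an unadjusted p under 0.05, 0 with DESeq2), against 4.64% of 19596 isoforms, and 16 of 39 without pair 4, against 26.1% of 19820 isoforms. Their log2 changes ran from -0.33 to 0.11. Isoform makeup was close in both lines. The 1920-base Actb transcript ENSMUST00000100497.11 took 69.6% ± 0.490 of Actb reads in KM_NTC and 69.0% ± 1.35 in KM_4A2cr (SD, n = 4). The 1952-base Actg1 transcript ENSMUST00000071555.13 took 79.9% ± 0.631 and 79.9% ± 0.554, and Tpm1 reads were spread over 15 transcripts, none above 11.3% in any library.

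Regulators of the motor and of the filament were read as 6 lists, in which 120 genes were tested in RPFs, 118 in total RNA and 117 in translational efficiency. In RPFs 8 were called (1 higher, 7 lower; 6.67% against 10.3% of all genes), in total RNA 5 (1 higher, 4 lower; 4.24% against 6.13%) and in translational efficiency 5 (4 higher, 1 lower; 4.27% against 2.91%). Medians were -0.03, -0.03 and 0.02, beside -0.01, 0.01 and -0.02 for all genes. Without pair 4 the counts were 38 of 121 in RPFs (11 higher, 27 lower; 31.4% against 33.4% of all genes), 33 of 119 in total RNA (4 higher, 29 lower; 27.7% against 29.8%) and 12 of 119 in translational efficiency (10 higher, 2 lower; 10.1% against 6.69%).

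Among 23 genes of light chain phosphorylation and its upstream regulators, 3 fell and 1 rose in RPFs. The exchange factor Ect2, which acts in cytokinesis, fell from 94.4 ± 36.1 to 64.6 ± 25.0 CPM (SD, n = 4; log2 -0.54, edgeR adjusted p = 0.0596), the light chain kinase Dapk3 from 25.3 ± 4.17 to 17.9 ± 3.67 CPM (-0.51, edgeR adjusted p = 0.0626), and the GTPase Rhoc from 91.6 ± 48.7 to 64.4 ± 31.5 CPM (-0.48, edgeR adjusted p = 0.0669). Ppp1r14b, an inhibitor of myosin phosphatase, rose from 43.1 ± 11.0 to 62.4 ± 15.5 CPM (0.53, edgeR adjusted p = 0.0679). Dapk3 and Rhoc also fell in total RNA, by 0.61 and 0.50 on the log2 scale (edgeR adjusted p = 0.0831 and 0.0794), the 2 called there. In translational efficiency 3 rose and none fell. The light chain kinases Rock1 (0.53, SE 0.11, edgeR adjusted p = 0.0241) and Rock2 (0.35, SE 0.10, edgeR adjusted p = 0.0894) and Ppp1r14b (0.41, SE 0.10, edgeR adjusted p = 0.0525) were each higher in 4 of 4 pairs, although neither Rock1 nor Rock2 was called in RPFs (edgeR adjusted p = 0.171 and 0.332). The list's medians were 0.09, -0.02 and 0.09 in RPFs, total RNA and translational efficiency. Without pair 4, 7, 3 and 3 of 23 were called. With DESeq2, Dapk3 was not called in RPFs, nor Dapk3 and Rhoc in total RNA.

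Among 47 genes of filament nucleation, capping and turnover, 2 were called in RPFs, 3 in total RNA and 1 in translational efficiency. Enah, an anti-capping protein that extends filaments, fell furthest, from 9.46 ± 1.01 to 4.60 ± 0.589 RPF CPM (-1.02, SE 0.18, edgeR adjusted p = 0.0185) and from 27.1 ± 2.90 to 13.1 ± 2.24 total RNA CPM (-1.06, SE 0.15, edgeR adjusted p = 0.0064). The formin Diaph3 fell in RPFs (-0.54, edgeR adjusted p = 0.0822) and in total RNA (-0.53, edgeR adjusted p = 0.0587), and the cofilin phosphatase Ssh3 rose in total RNA (0.54, edgeR adjusted p = 0.067). Arpc2, a subunit of the Arp2/3 complex, rose in translational efficiency (0.31, SE 0.09, edgeR adjusted p = 0.0965). The medians were -0.01, -0.05 and 0.09, and without pair 4 there were 13, 17 and 4 calls. DESeq2 did not call Ssh3.

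Among the other tropomyosins, crosslinkers and anchors, 2 of 27 fell in RPFs, namely the spectrin Sptan1 from 547 ± 118 to 385 ± 40.9 CPM (-0.49, edgeR adjusted p = 0.0646) and the actin-binding Palld from 30.7 ± 9.40 to 22.9 ± 10.7 CPM (-0.47, edgeR adjusted p = 0.0982). In total RNA and translational efficiency 0 were called (edgeR, 2 and 5 at an unadjusted p under 0.05, 0 and 0 with DESeq2), and DESeq2 did not call Palld in RPFs. Without pair 4, 11, 9 and 4 of 28 were called. Unconventional myosins gave 0 of 14 in each of the 3 comparisons (edgeR, 2, 0 and 2 unadjusted, 0 with DESeq2), and 5, 1 and 0 of 14 without pair 4. The muscle myosins, light chains and actins gave 0 of 6, 0 of 3 and 0 of 3 (edgeR, 1, 0 and 0 unadjusted, 0 with DESeq2), and 1 of 6, 0 of 4 and 0 of 4 without pair 4. Of the 3 tested genes of SRF and its coactivators, 0 were called in RPFs and total RNA (edgeR, 1 and 2 unadjusted, 0 with DESeq2), and 1 and 3 without pair 4. Mrtfa, the coactivator that binds monomeric actin, fell in translational efficiency from a ratio of 7.28 ± 2.99 to 3.76 ± 1.28 (-0.99, SE 0.23, edgeR adjusted p = 0.0367, lower in 4 of 4 pairs), and DESeq2 gave it no adjusted p. Its total RNA change was 0.67 (edgeR adjusted p = 0.166) and its RPF change -0.28 (edgeR adjusted p = 0.226). The 18 calls named in these lists stayed past the threshold with the same sign when pair 4 was left out, and 12 of them were called with DESeq2. Leaving out pair 4 raised the calls in RPFs from 10.3% to 33.4% of all genes, so this is not a strict check. Without pair 1, 2 or 3, RPF calls over all genes fell from 1062 to 232, 123 or 32. How the 18 calls fared there was not examined.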

How the data were processed

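The authors deposited whole-number counts of RPFs in coding sequences of the most abundant transcript per gene (aligned with BBmap, deduplicated with UMI-tools 1.0.1), and RSEM 1.3.3 expected counts and TPM per isoform of cytoplasmic RNA (Bowtie2 2.3.5.1), against GENCODE vM27 transcripts. Here expected counts were summed per gene and rounded. TPM served for levels between genes and, where stated, beside CPM for single libraries. The members and lists were chosen with earlier results of these data known. Named genes were the members, Eif4a2 and all genes of each list that edgeR called with 4 pairs. Also named were the 5 genes most correlated with Myh10 and the 2 on either side of it in efficiency change. edgeR 4.0.16 quasi-likelihood tests (R 4.3.3) used filterByExpr, TMM scaling, cell line plus replicate number as a block, Benjamini-Hochberg adjustment over all features and a threshold of 0.1. Translational efficiency was tested as a cell line by library kind interaction in 1 model. The fits were tested on simulated data. Same-numbered libraries deviated together (r = 0.617 to 0.830 in RPFs, 0.636 to 0.764 in total RNA), so that the numbers pair the samples. Per-pair changes are on log2 CPM with a prior count of 2. Fits with DESeq2 1.42.0 and limma 3.58.1, and other scalings, filters and left-out replicates, were alternatives. Without the block no comparison gave a call. An allele that both lines share is not reported here.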

Additional observations from a re-analysis of the deposited data

Results flagged for a closer look

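Of 60 groups of 4 replicate values of the members that were checked, 4 held a library with a gap to the others that was large against the group's range (Dixon's ratio at the 95% level); chance gives about 1 in 20. Both Myl6 values came from KM_4A2cr replicate 4, at 474 RPF CPM against 307 to 329.7 in the others and at 262 total RNA CPM against 110.4 to 134. Tpm1 RPFs were low in KM_NTC replicate 3, at 568 CPM against 733 to 747. Myh14 footprints per mRNA were low in KM_4A2cr replicate 1, at 1.53 against 2.54 to 2.72.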

How the results depend on the processing

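Without the replicate block, 0 genes were called in RPFs, total RNA, translational efficiency or isoforms (edgeR; 365, 362, 22 and 643 at an unadjusted p under 0.05), against 1062, 667, 291 and 910 with it, and limma on log2 ratios gave 0 calls in translational efficiency (1181 unadjusted). The block thus decided every call over all genes, and the members other than Myh10 had 0 calls with and without it. At an adjusted p of 0.05 the counts were 438, 321, 76 and 452. Scaled by library size only, which moved the median of all genes to -0.14 in RPFs and -0.15 in total RNA, 1619, 1130, 132 and 1393 were called, of which 482 of 1619 were higher in RPFs against 679 of 1062 with TMM, and 262 of 1130 in total RNA against 473 of 667. Upper-quartile scaling gave 534 of 998 and 325 of 541 higher in the same comparisons. Without a filter on low counts, 1268 genes were called in total RNA and 470 in translational efficiency, and DESeq2 called 136 in translational efficiency.

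Leaving out 1 replicate number at a time gave 32 to 3469 calls in RPFs, 63 to 3260 in total RNA, 11 to 674 in translational efficiency and 96 to 5182 in isoforms, the highest always without replicate 4 and the lowest without replicate 3, or without replicate 1 in translational efficiency. Gene IDs of the members called ran from 0 to 5, 0 to 6 and 0 to 1, all above 0 without replicate 4 only.

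Directions of small changes turned as follows on the log2 scale. Without the block, Myh9 and Myl6 total RNA were 0.01 each. By library size only, RPF changes were -0.04 for the second Myl12b ID and -0.05 for Tpm1, and total RNA changes -0.15 for Actb, -0.04 for Actg1 and -0.12 for Tpm1, with 1 member called, the second Myl12b ID (-0.42). Actb total RNA was -0.03 with upper-quartile scaling and -0.01 without a filter, and Myh14 total RNA was 0.00 on its RPF isoform only. With 1 replicate left out, RPF changes ran from -0.10 to 0.23 for the second Myl12b ID, -0.34 to 0.02 for Actb and -0.13 to 0.05 for Actg1. Total RNA changes ran from -0.23 to 0.07 for Myh9, -0.13 to 0.11 for Myh14, -0.34 to 0.01 for Myl6, -0.24 to 0.12 for Actb, -0.07 to 0.22 for Actg1 and -0.11 to 0.14 for Tpm1. Translational efficiency changes ran from -0.23 to 0.01 for Myh14, -0.17 to 0.00 for Myl6 and -0.03 to 0.23 for Tpm1. The cause of these turns was not tested. The Actb share difference kept its sign in RPFs and total RNA, and ran from -3.41 (without replicate 4) to -0.489 points (without replicate 3) in RPFs and from -1.36 (without replicate 4) to -0.469 points (without replicate 2) in total RNA. Summing both Myl12b IDs, added after seeing the data, gave no call and turned no direction of the first ID or of the other members. The summed changes were -0.23 in RPFs and -0.05 in translational efficiency, against 0.09 and 0.35 for the second ID alone. Myh10 kept its direction in every alternative run in all 3 comparisons. The alternatives refit the same libraries in which Myh10 was picked, so this is a description only. Its RPF change had an interval of -0.10 to 0.79 and was negative in pair 1. The efficiency change of Myh10 rests on total RNA counts of only 9 to 58 per library.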
